A study of Mus musculus
Mus spretus with 18 samples.

Results

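The results concern 8 genes that link membranes to the cytoskeleton: the ankyrins Ank1, Ank2 and Ank3, the spectrins Sptan1 and Sptbn1, the spectraplakins Macf1 and Dst, and the related plakin Plec. Members were taken by gene symbol from every table of skipped exons and from the table of expression levels. They hold 178 of the 86167 distinct skipped exons and 220 of the 125200 skipped exon events that the tables list over 15451 genes, where an event is an exon with its flanking exons. Each exon was read once, from the event with the most junction reads. The animals were F1 hybrids with a C57BL/6J mother and a SPRET/EiJ father, so that both alleles of a gene share the same nucleus. RNA-seq libraries came from cerebral cortex, heart, kidney, lung, spleen and liver of female F1 mice aged 8 weeks, from F1 embryonic stem cells (ESC), and from F1 fibroblasts that received DMSO or pladienolide B, an inhibitor of the spliceosomal SF3B complex, at 0.1 µM for 4 h. Each of the 9 groups had 2 libraries. By the study's methods the 5 organs other than liver were taken from 2 animals, and the liver libraries, made in an earlier study, are described as from these animals too, although they are labelled C57BL/7J and C57BL/8J in place of C57BL/6J. The organs thus share animals, and the labels do not say which library came from which animal. The ESC libraries came from separate clones and both fibroblast groups from cultured cells, for which separate cultures are not stated, so p-values cover only the spread between these libraries.

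Ankyrins are adaptors. Their repeat domain binds ion channels, transporters and cell adhesion molecules, and a neighbouring domain binds spectrin, a long rod built from alpha and beta chains that cross-links actin beneath the membrane. Ankyrin R, encoded by Ank1, is best known from the red cell membrane, ankyrin B (Ank2) from heart and axons, and ankyrin G (Ank3) from the axon initial segment and epithelial lateral membranes, and Ank2 and Ank3 carry very long exons that are used in neurons. Spectraplakins join actin to microtubules, and plectin, the product of Plec, anchors intermediate filaments at adhesions and muscle Z-discs.

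Junction reads summed over all skipped exon events ranged from 4.66e+07 to 1.29e+08 per tissue library and from 1.29e+08 to 1.52e+08 per fibroblast library. The marker list of each labelled tissue or cell type had its highest summed transcript level (TPM) in that tissue. Between the ESC clones, inclusion of the members differed by at least 0.1 in 9 of 89 exons. Between the libraries of an organ it did in 7 of 48 in heart, 4 of 45 in lung and 3 of 40 in spleen. The counts were 2 of 56 in kidney, 1 of 90 in cortex and 0 of 17 in liver. In fibroblasts they were 0 of 84 with DMSO and 7 of 79 with pladienolide B. The largest gap was 0.410 in ESC and 0.325 in heart. The spleen libraries differed in red cell markers, with a summed TPM of 1242 in replicate 1 and 3537 in replicate 2, which stands beside the spleen values of Ank1.

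To ask where each gene is expressed, TPM (a transcript level per length and library total, deposited for each library) were compared across the 7 tissues. All 8 genes differed between tissues by limma on log2(TPM + 0.1), as did 99.2% of the 22674 genes tested. Of the 8 genes, 5 were highest in cortex, Ank1 and Plec were highest in heart, Macf1 was highest in ESC, and liver was lowest for every one. Among all genes 26.0% were highest in cortex, 6.63% in heart and 27.2% in ESC. The share of all genes lowest in liver was not counted, but 69.1% were higher in cortex than in liver and 13.1% lower. In these bulk tissues fewer cells of a type and less RNA per cell cannot be told apart.

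Ank1 (ENSMUSG00000031543), the red cell ankyrin, had a TPM of 24.5 and 24.4 in cortex, 68.3 and 62.6 in heart, 0.0810 and 0.189 in kidney, 1.66 and 1.46 in lung, 3.60 and 17.4 in spleen, 0.0120 and 0.0136 in liver, and 0.128 and 0.223 in ESC. Heart and cortex were above the other tissues (log2 difference 1.42 ± 0.52 SE, adjusted p = 0.0272 between heart and cortex), while ESC, kidney and liver held almost none. The spleen libraries were the most unequal, and the replicate with more Ank1 was also the one with more of the red cell marker Klf1 (26.6 and 114 TPM). The part of red cell content in the Ank1 level was not tested. Ank2 (ENSMUSG00000032826), ankyrin B, had a TPM of 75.4 and 80.7 in cortex, 8.48 and 9.86 in heart, 1.26 and 1.22 in kidney, 1.07 and 0.797 in lung, 0.683 and 0.606 in spleen, 0.113 and 0.111 in liver, and 5.98 and 1.20 in ESC. Cortex stood above heart (log2 difference 3.08 ± 0.49 SE, adjusted p = 1.04e-04), heart above ESC, and the steps from ESC to kidney, to lung and to spleen were each not separated by the test, although ESC lay above lung and spleen. Ank3 (ENSMUSG00000069601), ankyrin G, had a TPM of 54.8 and 55.0 in cortex, 7.08 and 7.22 in heart, 16.4 and 14.2 in kidney, 3.33 and 3.48 in lung, 1.09 and 1.20 in spleen, 0.969 and 0.811 in liver, and 2.63 and 2.20 in ESC. Every neighbour in this order of levels differed, from cortex over kidney, heart, lung, ESC and spleen to liver, and cortex exceeded kidney by a log2 difference of 1.84 ± 0.13 SE.

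In cortex, kidney, lung and liver the spectrins had the highest mean TPM of the 8 genes. Sptan1 (ENSMUSG00000057738), which encodes the alpha chain of non-erythroid spectrin, had a TPM of 359 and 378 in cortex, 55.0 and 64.9 in heart, 112 and 100 in kidney, 151 and 159 in lung, 68.2 and 60.3 in spleen, 16.2 and 16.9 in liver, and 162 and 92.3 in ESC. Cortex lay above every other library (log2 difference 1.25 ± 0.20 SE, adjusted p = 9.41e-05 against lung), lung lay above kidney with ESC separated from neither, and spleen and heart were not separated. Sptbn1 (ENSMUSG00000020315), its beta partner, had a TPM of 226 and 236 in cortex, 126 and 143 in heart, 108 and 102 in kidney, 215 and 220 in lung, 49.7 and 43.1 in spleen, 7.80 and 8.55 in liver, and 102 and 50.6 in ESC. Cortex and lung were not separated by the test (log2 difference 0.09 ± 0.23 SE, adjusted p = 0.759). Lung lay above heart, and liver lay far below spleen, the next lowest tissue.

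Macf1 (ENSMUSG00000028649), an actin and microtubule cross-linker, had a TPM of 79.9 and 75.5 in cortex, 29.4 and 31.4 in heart, 25.3 and 23.2 in kidney, 94.5 and 96.3 in lung, 80.6 and 64.6 in spleen, 4.78 and 5.05 in liver, and 143 and 94.5 in ESC. The steps from ESC to lung, to cortex and to spleen were each not separated by the test. By limma ESC nevertheless lay above cortex and spleen, and lung above spleen (adjusted p = 0.00465, 0.00166 and 0.0401). All libraries of ESC, lung, cortex and spleen lay above those of heart and kidney. Dst (ENSMUSG00000026131), which encodes the neuronal, muscle and epithelial forms of dystonin, had a TPM of 60.6 and 59.7 in cortex, 33.6 and 34.3 in heart, 27.1 and 23.7 in kidney, 15.1 and 15.9 in lung, 5.00 and 4.82 in spleen, 4.29 and 5.09 in liver, and 61.9 and 42.1 in ESC. Cortex and ESC led and were not separated by the test, nor were spleen and liver, both near the bottom. Plec (ENSMUSG00000022565) had a TPM of 42.5 and 45.1 in cortex, 50.9 and 49.2 in heart, 16.9 and 15.7 in kidney, 33.4 and 29.9 in lung, 34.9 and 27.4 in spleen, 5.36 and 6.67 in liver, and 39.6 and 16.4 in ESC. It was the most even of the 8, with 12 of 21 tissue pairs differing against 17 to 21 for the others, and in its order of levels liver alone was separated from its neighbour (log2 difference 1.43 ± 0.30 SE, adjusted p = 8.72e-04 between kidney and liver).

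**Figure D1:**
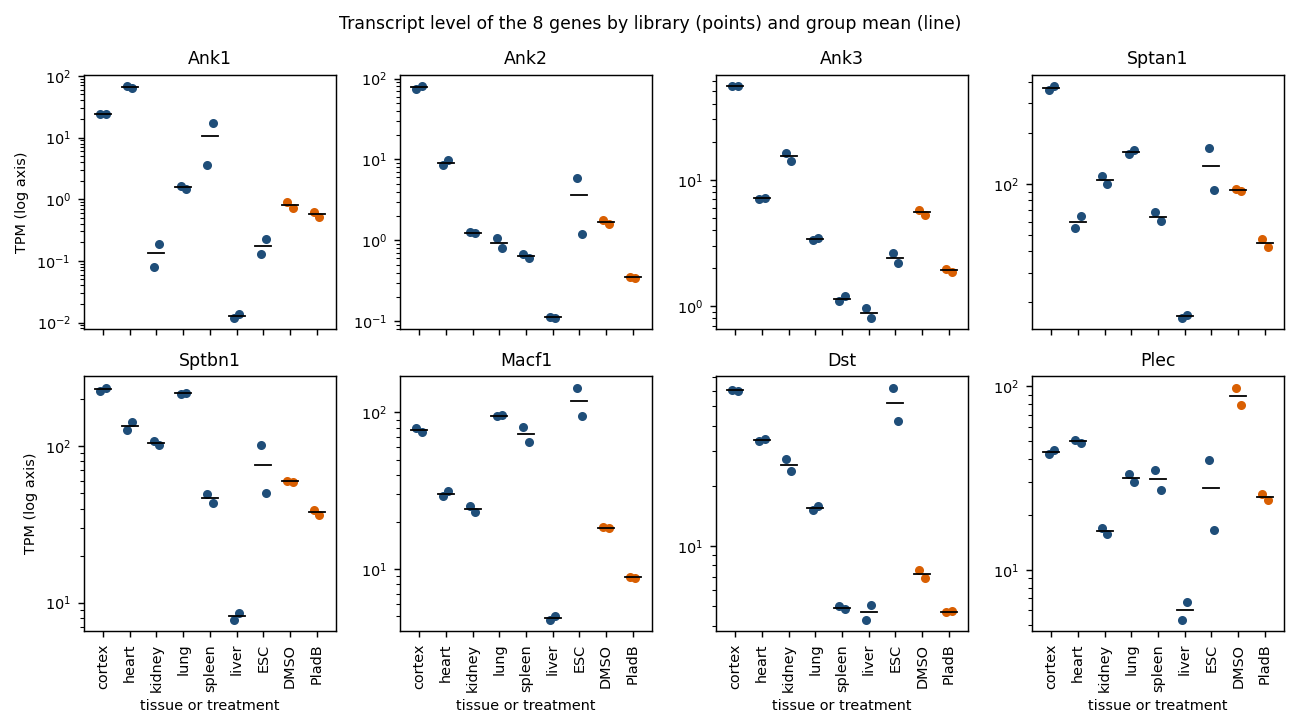
TPM (log axis) of each of the 8 genes in every library of the 7 tissues (blue) and of fibroblasts with DMSO or pladienolide B (PladB, orange), 1 point per library, with a line at the mean of both. Cortex leads for Ank2, Ank3, Sptan1, Sptbn1 and Dst, and liver is the lowest tissue in every panel.

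The genes whose mean levels ran most alike over the 7 tissues, by Pearson r of log2(TPM + 0.1) among 19138 genes, are given as a description of 7 points per gene. They were Gm15690, Hdac9 and A430046D13Rik for Ank1 (r = 0.952 for Gm15690), Hcn2, Palm2 and Prepl for Ank2 (r = 0.997 for Hcn2), Gm9925, Slc6a17 and Hdhd2 for Ank3 (r = 0.987 for Gm9925), and Dpcd, 1110051M20Rik and Zc2hc1a for Sptan1 (r = 0.995 for Dpcd). For the others they were Dnal4, A930035D04Rik and Arhgef17 for Sptbn1 (r = 0.992 for Dnal4), Mesdc1, Gtf3c5 and Dmap1 for Macf1 (r = 0.991 for Mesdc1), Epha4, Sema5b and E130311K13Rik for Dst (r = 0.981 for Epha4), and Wfikkn2, Lgr6 and Fopnl for Plec (r = 0.984 for Wfikkn2). No gene of the 8 was among the leading 3 of another.

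The known partners of these proteins were followed in lists chosen from textbook knowledge, but with earlier results of these data known. Cortex was compared with heart. Of the 8 genes, 6 were higher in cortex and 1, Ank1, was lower, with a median log2 difference of 1.09, while 55.5% of all genes were higher and 19.6% lower, 75.1% in total, with a median of 0.80. Of 18 membrane proteins that ankyrins anchor, 12 were higher in cortex, among them the adhesion molecule Nfasc (126 and 131 TPM in cortex, 0.188 and 0.251 in heart) and the axonal sodium channel Scn8a (111 and 117 TPM in cortex, 0.0142 and 0.0215 in heart). A further 5 were lower in cortex. Of the 5 other spectrin genes 3 were higher in cortex and 1 lower. Of the adducins and other proteins of the membrane skeleton, 6 of 8 measured were higher in cortex and 2 lower, while the 4.1 protein genes were not analysed here. The desmosomal plakin Dsp (1.22 and 1.81 TPM in cortex, 298 and 316 in heart) was among 2 of 3 other plakins that were lower in cortex, and Des, the muscle intermediate filament that plectin binds, was among 4 of 15 plakin partners that were lower, against 7 that were higher.

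Splicing was measured as percent spliced in (PSI), the length-corrected share of junction reads that include an exon, from 0 to 1. Of the 178 exons, 152 had at least 20 junction reads in both libraries of a tissue and 81 had them in at least 2 tissues. In 34 of these 81 (42.0%) inclusion differed between tissues, with an adjusted p under 0.05 in a quasi-binomial model and a switch score of at least 0.1, where the switch score is the largest difference of mean PSI between 2 tissues. Among all genes 8.54% of 39890 exons did so. The members were chosen with earlier results of these data known, so the shares of all genes are not a like sample. Switch scores of at least 0.5 were reached by 25 of the 81 exons (30.9%, all genes 2.81%). The other exons were mostly constant, 38 of the 81 having a mean PSI above 0.9 and 6 below 0.1 in every tissue measured. An exon of a gene silent in a tissue is not measured there.

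The genes were unlike in this respect. Inclusion differed in 10 of 13 tested exons of Ank2, 7 of 15 of Ank3, 2 of 6 of Ank1, 3 of 10 of Sptan1, 6 of 19 of Macf1, 4 of 9 of Dst and 2 of 4 of Plec. Sptbn1 had 0 of 5, all of them with a mean PSI above 0.9 in every tissue measured. Of these 5, 1 had an unadjusted p under 0.05 in the quasi-binomial model and 0 passed by limma on the logit of PSI. The exons that differed were often very short. Of 11 tested microexons of at most 30 bp, 10 differed between tissues (90.9%), against 42.6% of the 773 microexons of all genes, and 8 of these 10 were highest in cortex (80.0%, all genes 73.8%). Of the 34 exons, 32 (94.1%) had a length that is a multiple of 3, against 58.3% of all exons that differed. Among the exons tested the share was 67.9% for the 8 genes and 41.5% for all genes. Such a length keeps the reading frame where the exon is coding, which was not examined. In these 34 exons PSI was highest in cortex for 14 and in heart for 11, and lowest in cortex for 9 and in kidney for 9. The cortex shares, 41.2% highest and 26.5% lowest, lay near the 35.7% and 28.4% of all genes. Of the 3407 exons of all genes that differed, 513 were highest in heart and 377 lowest in kidney. Without the ESC libraries, whose clones were unlike, 34 of 68 exons differed (all genes 11.2%).

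**Figure D2:**
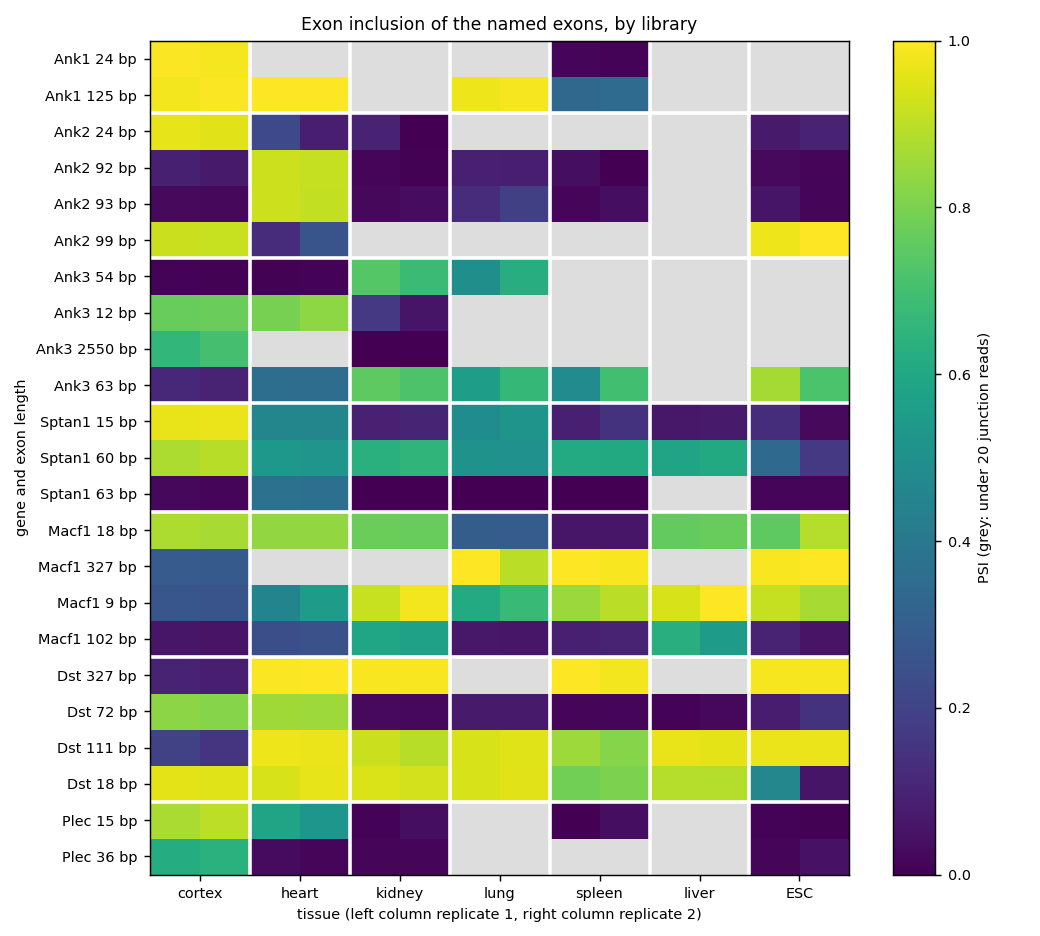
PSI (colour, 0 to 1) of the 23 named exons of the 8 genes, 1 row per exon, with a column for each of the 2 libraries of a tissue and grey where a tissue had under 20 junction reads. Cortex and heart depart most often from the other tissues, and the ESC libraries are far apart for the Dst 18-bp exon, with 0.465 and 0.0549.

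**Figure D3:**
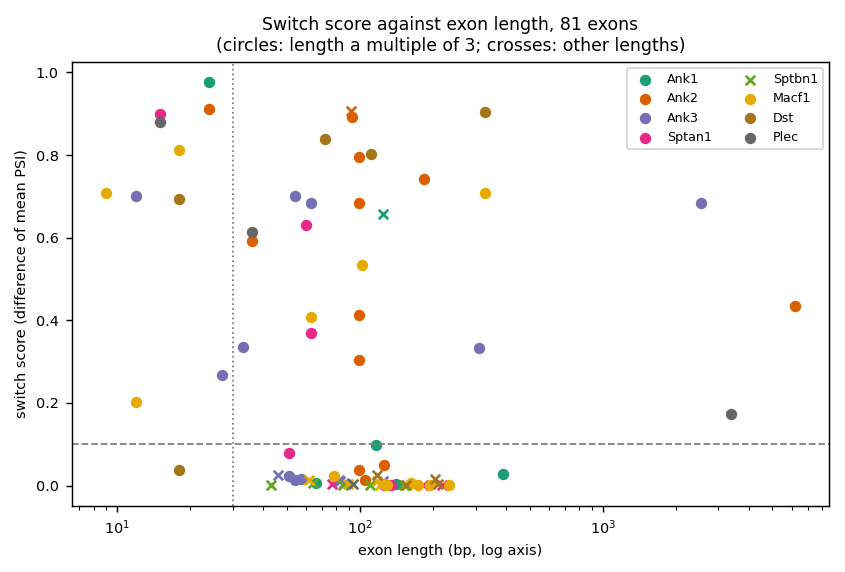
Switch score (largest difference of mean PSI between tissues) against exon length in bp (log axis) for the 81 tested exons, coloured by gene, with circles for lengths that are a multiple of 3, crosses for other lengths, a dotted line at 30 bp and a dashed line at a score of 0.1. The microexons left of the dotted line reach 0.977, while many longer exons sit near 0.

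The exons of Ank1 that differed were lowest in spleen, and the microexon among them could be measured in cortex and spleen only. A 24-bp microexon (chr8:23110347-23110370, mm10) had a PSI of 0.993 and 0.986 in cortex and 0.0154 and 0.0102 in spleen, near full inclusion in one tissue and near full skipping in the other (adjusted p = 1.39e-08). A 125-bp exon (chr8:23141596-23141720) had a PSI of 0.982 and 0.994 in cortex, 0.998 and 0.997 in heart, 0.975 and 0.985 in lung, and 0.333 and 0.348 in spleen. Spleen alone was low, but it rested on 28 and 124 reads and drops out where 50 reads per library are required. The red cell markers of the spleen libraries, which differ between its replicates, stand beside both values, and the spleen replicates were close in PSI.

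Ank2 had the largest share of tested exons that differed. Cortex and heart differed in many of its exons, which lie on the minus strand of chromosome 3. A 92-bp exon (chr3:126926803-126926894) had a PSI of 0.0892 and 0.0713 in cortex, 0.923 and 0.913 in heart, 0.0154 and 0.00685 in kidney, 0.0898 and 0.0837 in lung, 0.0355 and 0 (upper limit 0.0204) in spleen, and 0.0248 and 0.0189 in ESC. A neighbouring 93-bp exon (chr3:126930561-126930653) had 0.0256 and 0.0200 in cortex, 0.923 and 0.907 in heart, 0.0217 and 0.0316 in kidney, 0.125 and 0.191 in lung, 0.0169 and 0.0382 in spleen, and 0.0564 and 0.0156 in ESC. Both were included in heart and mostly skipped elsewhere, with no overlap of the heart libraries with any other (adjusted p = 8.39e-13 and 8.38e-14), and lung lay above cortex for the 93-bp exon. The cardiomyocyte marker list had a summed TPM of 54051 and 54132 in heart, 1073 and 855 in lung and 76.2 and 77.0 in cortex, with 0 of its 5 markers at 0 in both lung libraries, and the part of heart muscle RNA in the lung values was not tested. The opposite held for a 24-bp microexon (chr3:127052226-127052249), with a PSI of 0.961 and 0.956 in cortex, 0.220 and 0.0821 in heart, 0.0945 and 0 (upper limit 0.0690) in kidney, and 0.0705 and 0.0945 in ESC. It was included in cortex and mostly skipped in the other 3 tissues measured. A 99-bp exon (chr3:127029475-127029573) had 0.918 and 0.915 in cortex, 0.126 and 0.262 in heart, and 0.976 and 1 in ESC (adjusted p = 3.93e-06), with heart low and no overlap with cortex or ESC.

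Of the next 3 Ank2 exons, the first pair lies outside the naming rule and was chosen after its values were seen. The 6198-bp giant exon (chr3:126941610-126947807) that distinguishes the long axonal form had a PSI of 0.430 and 0.447 in cortex, 0.00382 and 0.00439 in heart, 0.0383 and 0.050 in kidney, 0.0123 and 0.0303 in lung, and 0.0713 and 0.0552 in ESC. Cortex was the high tissue and heart the lowest (adjusted p = 4.40e-10). Another 99-bp exon (chr3:126963383-126963481) had a PSI of 0.703 and 0.678 in cortex and 0.0143 and 0.0121 in heart, again high in cortex only among the tissues measured, which also included kidney and ESC. A 183-bp exon (chr3:126928665-126928847) was mostly skipped in cortex, with 0.245 and 0.224, whereas heart had 0.944 and 0.958 and every other tissue library was higher than cortex as well.

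The exons of Ank3 that differed did so in unlike patterns over tissues. A 54-bp exon (chr10:69920438-69920491, chromosome 10, plus strand) had a PSI of 0.0107 and 0.00550 in cortex, 0.00555 and 0.00996 in heart, 0.737 and 0.681 in kidney, and 0.499 and 0.624 in lung, and the kidney and lung libraries lay far above the others (adjusted p = 1.28e-09). A 63-bp exon (chr10:69904448-69904510) had 0.115 and 0.100 in cortex, 0.361 and 0.359 in heart, 0.752 and 0.723 in kidney, 0.557 and 0.667 in lung, 0.482 and 0.698 in spleen, and 0.867 and 0.715 in ESC. Cortex was lowest, heart was intermediate but not separated from lung and spleen, and kidney, lung, spleen and ESC were not separated by the test. A 12-bp microexon (chr10:69929447-69929458) was lowest in kidney, with 0.766 and 0.770 in cortex, 0.794 and 0.830 in heart, and 0.168 and 0.0561 in kidney, although its kidney value rested on 64 and 47 reads. The 2550-bp exon (chr10:69986083-69988632) of the long neuronal form had 0.663 and 0.705 in cortex and 0 (upper limit 0.00125) and 5.07e-04 in kidney, the tissues in which it could be measured (adjusted p = 6.02e-10). It was included in most cortex reads and at almost no kidney reads. A 27-bp microexon (chr10:69980824-69980850), which also differed between alleles, had 0.280 and 0.260 in cortex and at most 0.0408 in the other 5 tissues measured. A 309-bp exon (chr10:70001923-70002231), chosen after its values were seen, had 0.0989 and 0.0784 in cortex, 0.426 and 0.419 in heart, 0.219 and 0.231 in kidney, 0.143 and 0.15 in lung, 0.333 and 0.209 in spleen, 0.223 and 0.148 in liver, and 0.538 and 0.197 in ESC, with heart above cortex and lung and the ESC clones far apart (adjusted p = 2.73e-06).

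In the alpha spectrin gene, Sptan1, a 15-bp microexon (chr2:30014158-30014172, plus strand) was graded over tissues. Its PSI was 0.966 and 0.969 in cortex, 0.460 and 0.458 in heart, 0.0916 and 0.105 in kidney, 0.487 and 0.517 in lung, 0.0886 and 0.148 in spleen, 0.0630 and 0.0740 in liver, and 0.129 and 0.0269 in ESC. Cortex was near full inclusion, heart and lung were intermediate and not separated by the test, and kidney, spleen, liver and ESC formed a low group (adjusted p = 1.20e-12). A 60-bp exon (chr2:30001100-30001159) had 0.878 and 0.891 in cortex, 0.532 and 0.520 in heart, 0.634 and 0.654 in kidney, 0.511 and 0.507 in lung, 0.611 and 0.609 in spleen, 0.582 and 0.608 in liver, and 0.343 and 0.164 in ESC, high in cortex, lowest in ESC, and intermediate in the 5 remaining organs, which the test did not separate. The ESC clones were well separated from each other in this exon. A 63-bp exon (chr2:30028644-30028706) was highest in heart, with 0.377 and 0.365 against 0.0212 and 0.0174 in cortex and lower values in kidney, lung, spleen and ESC (adjusted p = 8.09e-13). None of the 5 tested exons of the beta chain gene Sptbn1 passed the test, as given above.

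Macf1, on the minus strand of chromosome 4, had 3 microexons among its 6 tissue-dependent exons. The 18-bp microexon (chr4:123364057-123364074) had a PSI of 0.878 and 0.870 in cortex, 0.840 and 0.839 in heart, 0.777 and 0.767 in kidney, 0.295 and 0.292 in lung, 0.0609 and 0.0621 in spleen, 0.760 and 0.768 in liver, and 0.754 and 0.888 in ESC. Spleen nearly skipped it, lung was intermediate, and each of the remaining tissues was above both (adjusted p = 4.18e-13). The 9-bp microexon (chr4:123386549-123386557) had 0.266 and 0.259 in cortex, 0.452 and 0.554 in heart, 0.915 and 0.982 in kidney, 0.613 and 0.677 in lung, 0.849 and 0.895 in spleen, 0.941 and 1 in liver, and 0.911 and 0.870 in ESC. Cortex was lowest, followed by heart and lung, with the liver and kidney libraries near full inclusion. A 102-bp exon (chr4:123354479-123354580) had 0.0602 and 0.0518 in cortex, 0.239 and 0.250 in heart, 0.590 and 0.572 in kidney, 0.0653 and 0.0621 in lung, 0.0871 and 0.0962 in spleen, 0.627 and 0.552 in liver, and 0.0964 and 0.0520 in ESC. Kidney and liver were high and not separated by the test, heart was intermediate, and cortex, lung, spleen and ESC formed a low group. A 327-bp exon (chr4:123397094-123397420) had 0.289 and 0.283 in cortex, 1 and 0.895 in lung, 1 and 0.990 in spleen, and 0.990 and 0.996 in ESC, so that cortex skipped most of what the other tissues included (adjusted p = 8.07e-11).

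Dst, the paralog of Macf1 on chromosome 1, also carries a 327-bp exon (chr1:34249804-34250130) that cortex skipped. Its PSI was 0.100 and 0.0848 in cortex, 0.993 and 1 in heart, 0.991 and 0.991 in kidney, 1 and 0.981 in spleen, and 0.986 and 0.988 in ESC (adjusted p = 1.08e-12). The correspondence of both exons by sequence was not analysed here. A 72-bp exon (chr1:34301861-34301932) had 0.825 and 0.820 in cortex, 0.858 and 0.853 in heart, 0.0258 and 0.0214 in kidney, 0.0737 and 0.0704 in lung, 0.0168 and 0.0179 in spleen, 0.00891 and 0.0233 in liver, and 0.0785 and 0.147 in ESC, which divides cortex and heart from the other 5 tissues without overlap (adjusted p = 6.86e-15). A 111-bp exon (chr1:34303421-34303531) was low in cortex alone, with 0.192 and 0.152 in cortex, 0.977 and 0.972 in heart, 0.922 and 0.894 in kidney, 0.939 and 0.951 in lung, 0.855 and 0.819 in spleen, 0.966 and 0.961 in liver, and 0.972 and 0.972 in ESC. Cortex lay far below the other tissues, and spleen lay below heart, lung, liver and ESC. An 18-bp microexon (chr1:34296742-34296759) was included in every organ and had 0.957 and 0.951 in cortex, 0.940 and 0.962 in heart, 0.944 and 0.930 in kidney, 0.940 and 0.956 in lung, 0.787 and 0.803 in spleen, 0.889 and 0.889 in liver, and 0.465 and 0.0549 in ESC. The ESC clones differed more here than in any other exon of the 8 genes, by 0.410, yet both lay below all organ libraries.

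In Plec, on the minus strand of chromosome 15, a 15-bp microexon (chr15:76194559-76194573) had a PSI of 0.875 and 0.902 in cortex, 0.585 and 0.524 in heart, 0.00819 and 0.0374 in kidney, 0 (upper limit 0.112) and 0.0390 in spleen, and 0.00974 and 0.00747 in ESC. Cortex was highest, heart followed, and the other 3 tissues were near 0 (adjusted p = 4.42e-09). A 36-bp exon close by (chr15:76193966-76194001) had 0.620 and 0.640 in cortex, 0.0273 and 0.0129 in heart, 0.0186 and 0.0146 in kidney, and 0.0185 and 0.0508 in ESC, included in cortex and nearly absent in heart, kidney and ESC (adjusted p = 7.46e-08). An upper limit in parentheses, here and above, is the PSI that 3 inclusion reads would give where none was seen, and covers counting error only.

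Tissue pairs were then compared one at a time, with the same model and an absolute PSI difference of at least 0.1. Between cortex and heart 23 of 40 exons differed (background 10.4%), 11 higher in cortex and 12 in heart (all genes 844 and 670). Cortex also differed in 22 of 43 against kidney (background 10.1%), 14 of 30 against lung (background 10.0%), 16 of 28 against spleen (background 11.1%), 7 of 14 against liver (background 11.8%) and 20 of 49 against ESC (background 9.44%). Exons that separated cortex from another tissue went in either direction, as with kidney, where 14 were higher in cortex and 8 in kidney (all genes 983 and 809). Heart differed in 15 of 37 against kidney (background 7.51%), 9 of 31 against lung (background 6.34%), 11 of 23 against spleen (background 7.96%), 5 of 15 against liver (background 8.80%) and 13 of 35 against ESC (background 8.38%). Of the 9 that separated heart from lung 8 were higher in heart (all genes 538 of 949), and of the 11 from spleen 10 (660 of 1135). Kidney differed in 4 of 30 against lung (background 2.23%), 2 of 25 against spleen (background 2.76%) and 4 of 40 against ESC (background 3.94%), lung in 4 of 27 against spleen (background 1.96%), 3 of 15 against liver (background 3.05%) and 6 of 28 against ESC (background 4.03%), spleen in 3 of 11 against liver (background 3.54%) and 4 of 28 against ESC (background 3.95%), and liver in 3 of 15 against ESC (background 4.71%). Kidney and liver had 0 of 16 (background 0.847%) in the quasi-binomial model, with 1 at an unadjusted p under 0.05. The exons of the 34 whose PSI over tissues is not given had switch scores between 0.203 and 0.743. The lower bound is the score of a 12-bp exon of Macf1, and the upper bound that of the 183-bp exon of Ank2, described above.

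Allelic comparisons ask for cis-regulatory differences, since both alleles of an F1 nucleus meet the same splicing factors. Reads assigned to C57BL/6J made up 48.3 to 53.8% of allelic junction reads per library. Inclusion differed between the alleles in 7 of 126 exons of the 8 genes in at least 1 tissue (all genes 3.01%), where an adjusted p under 0.05 and a PSI difference of at least 0.1 were required. By tissue these were 5 of 74 in cortex (background 2.21%), 1 of 37 in heart (3.42%), 2 of 36 in lung (2.63%) and 2 of 22 in spleen (2.69%). Kidney had 0 of 35 (background 2.94%, 7 at an unadjusted p under 0.05), liver 0 of 9 (2.65%, 2 unadjusted) and ESC 0 of 58 (0.283%, 0 unadjusted) by the quasi-binomial model. In ESC the imprinted genes that check the order of the alleles did not sit on the allele of their parent, with 0 of 4 maternal genes and 4 of 6 paternal genes above 50% on C57BL/6J. With the library as a replicate block 7 exons passed in tissues (all genes 3.69%) and 2 in DMSO-treated fibroblasts (2.86%), as without it. By limma on the logit of PSI, an alternative chosen after seeing the data, no allelic difference of the 8 genes passed in any group, and at most 135 exons of all genes did in a single group.

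The 15-bp microexon of Sptan1 differed between alleles in heart, lung, spleen and fibroblasts. In heart its PSI was 0.567 and 0.610 on the C57BL/6J allele and 0.306 and 0.269 on the SPRET/EiJ allele, a difference of 0.301 (adjusted p = 3.50e-10). In lung the values were 0.622 and 0.653 against 0.298 and 0.319, a difference of 0.329 (adjusted p = 1.46e-06), and in spleen 0.185 and 0.241 against 0.0290 and 0.0321, a difference of 0.183 (adjusted p = 1.62e-08). In each of these tissues both C57BL/6J values lay above both SPRET/EiJ values. Kidney showed the same order with a smaller gap, at 0.139 and 0.139 against 0.0528 and 0.0505, below the limit of 0.1 (adjusted p = 8.33e-05). In cortex, where inclusion was above 0.9 on both alleles, the values were 0.935 and 0.934 against 0.941 and 0.938, a difference of -0.00538 (adjusted p = 0.718). DMSO-treated fibroblasts had 0.0970 and 0.157 against 0.0140 and 0.00806, a difference of 0.116 (adjusted p = 1.32e-20).

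The 92-bp heart exon of Ank2 differed in opposite directions in cortex and lung. In cortex its PSI was 0.0695 and 0.0520 on the C57BL/6J allele and 0.219 and 0.171 on the SPRET/EiJ allele, a difference of -0.134 (adjusted p = 0.00105). In lung it was 0.30 and 0.241 against 0.0514 and 0.0435, a difference of 0.223 (adjusted p = 0.0346), on 36 to 92 reads per allele and library. Thus SPRET/EiJ was the higher allele in cortex and C57BL/6J in lung, without overlap in either. In all reads the PSI, given above, was under 0.1 in both tissues and nearer the lower allele. The limit of 0.1 between allelic and all-read PSI is wide at such a level. The cardiomyocyte markers present in lung, given above, stand beside the lung value, and their part in it was not tested. In heart, where the exon is used, the values were 0.971 and 0.946 against 0.898 and 0.914, a difference of 0.0525 (adjusted p = 0.215). The 183-bp Ank2 exon, which cortex mostly skips, had 0.296 and 0.273 against 0.161 and 0.152 in cortex, a difference of 0.128 (adjusted p = 2.33e-04), higher on C57BL/6J.

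The 111-bp exon of Dst differed in spleen, with 0.984 and 0.956 against 0.684 and 0.669 on C57BL/6J and SPRET/EiJ, a difference of 0.294 (adjusted p = 1.32e-06). In cortex the exon had 0.128 and 0.102 against 0.164 and 0.125 and in heart 0.956 and 0.939 against 0.961 and 0.962, and neither passed the test. The other exons passed in cortex. The 27-bp Ank3 microexon had 0.385 and 0.327 against 0.214 and 0.204, a difference of 0.147 (adjusted p = 0.00922), and a 12-bp Macf1 microexon (chr4:123368821-123368832) had 0.211 and 0.252 against 0.146 and 0.109, a difference of 0.104 (adjusted p = 0.00904). Both were higher on C57BL/6J. A 160-bp Macf1 exon (chr4:123397748-123397907) was higher on SPRET/EiJ, with 0.885 and 0.850 against 0.970 and 1, a difference of -0.117 (adjusted p = 0.0327), and did not pass where 50 reads per allele were required (adjusted p = 0.0556). In DMSO-treated fibroblasts 2 of 33 exons differed (background 2.91%), the Sptan1 microexon and the 63-bp exon of Ank3, which had 0.261 and 0.0916 against 0.408 and 0.431, a difference of -0.243 (adjusted p = 0.0155). The C57BL/6J values of the latter were far apart. Without replicate 2 the Sptan1 difference fell below 0.1, and only the Ank3 difference reached that size.

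For exons with an allelic difference in some tissue, an allele by tissue term was added after seeing the data to ask whether that difference itself varied between tissues. It did for 3 exons, between cortex and heart for the Ank2 92-bp and Sptan1 15-bp exons (background 0.165%), between cortex and lung for the same 2 exons (0.114%), between cortex and spleen for the Dst 111-bp and Sptan1 15-bp exons (0.0532%), and between heart and spleen for the Dst 111-bp exon (0.0238%). These exons were chosen for an allelic difference, so the background is not a like sample.

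**Figure D4:**
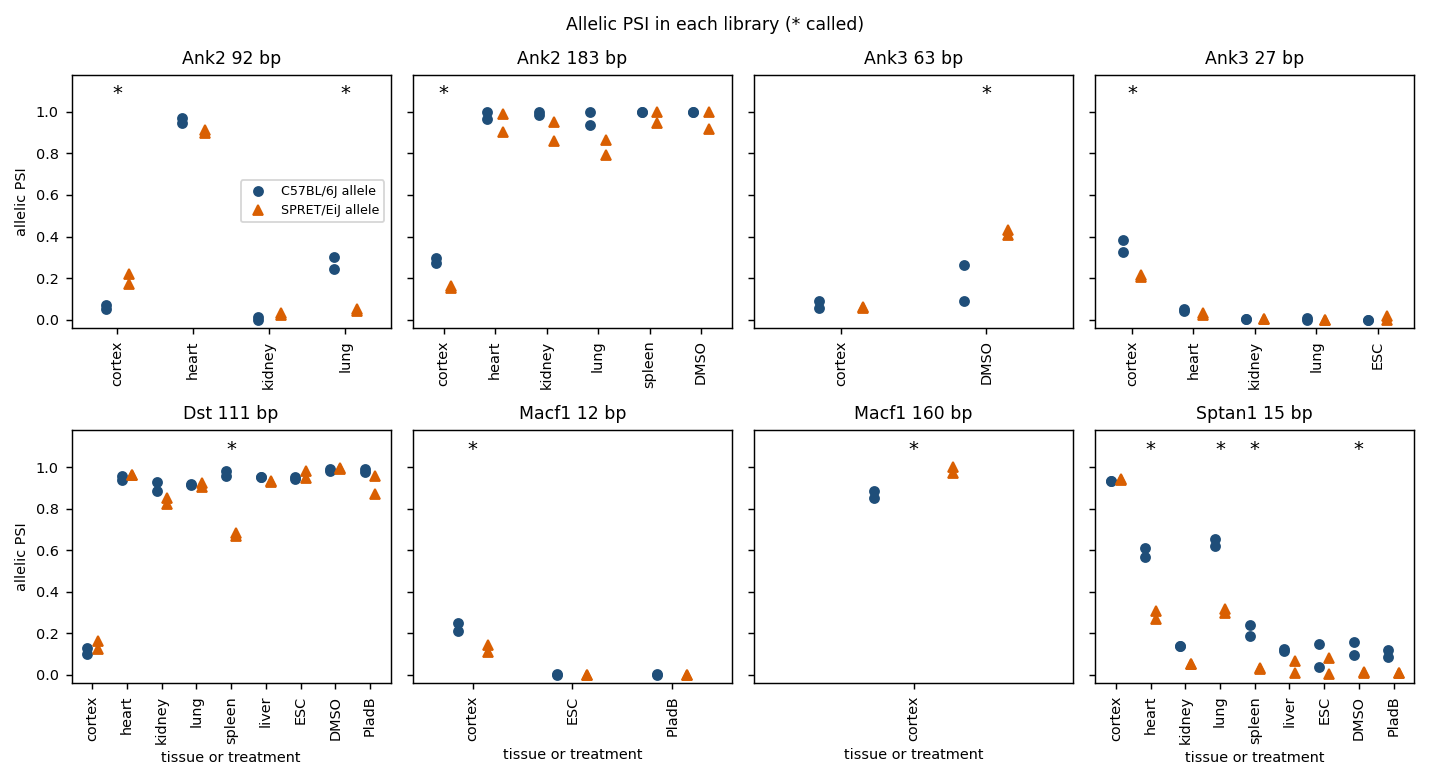
PSI (0 to 1) on the C57BL/6J and SPRET/EiJ alleles for the 8 exons with an allelic difference, 1 point per library and allele, by tissue or treatment with enough reads, with a star over each group in which the alleles differed. The Sptan1 microexon is higher on C57BL/6J in heart, lung and spleen and above 0.9 on both alleles in cortex, and the Ank2 92-bp exon changes sides between cortex and lung.

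Pladienolide B was used to ask how these exons respond when the splicing machinery is disturbed. Of 74 exons with enough reads in all 4 fibroblast libraries, 2 were included less (2.70%, all genes 7.40%, of which 7.19% lower and 0.206% higher), and none more. A call required an adjusted p under 0.05 and a PSI difference of at least 0.1. By limma on the logit of PSI 2 passed as well. In the quasi-binomial model 6 had an adjusted p under 0.05 whatever the size of change, and 14 an unadjusted p under 0.05. A 9-bp microexon of Macf1, described above, went from 0.985 and 0.988 to 0.815 and 0.788, a change of -0.185 (adjusted p = 1.42e-14). An 85-bp exon of Dst (chr1:34250610-34250694) went from 1 and 1 to 0.846 and 0.739, a change of -0.207 (adjusted p = 8.11e-04). In both, all treated values lay below all control values. PSI was lower after treatment in 56 of 74 (75.7%, all genes 72.0%), with a median change of -0.00490 against -0.00402 for all genes. The 309-bp exon of Ank3, again chosen after its values were seen, had 0.392 and 0.355 with DMSO and 0.253 and 0.213 with pladienolide B, and did not pass (adjusted p = 0.138).

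Between alleles 0 of 37 exons differed after pladienolide B (background 2.40%, 4 at an unadjusted p under 0.05 in the quasi-binomial model, 0 by limma). The Sptan1 microexon had C57BL/6J above SPRET/EiJ, with 0.0875 and 0.120 against 0.00978 and 0.00865, a difference of 0.0947 (adjusted p = 1.39e-08). A change of the allelic difference with treatment was found in 0 of 14 exons by the quasi-binomial model (background 0.0679%, 2 at an unadjusted p under 0.05). For the Sptan1 microexon that change was -0.0214 (unadjusted p = 0.984). Of the retained introns listed for the 8 genes, 1 had enough reads, the 325-bp Sptan1 intron at chr2:30029675-30029999. It was retained in 0.0138 and 0.0147 of reads with DMSO and 0.0203 and 0.0304 with pladienolide B, on the 0 to 1 scale. Both treated values were higher, but the intron did not pass (quasi-binomial p = 0.0462, adjusted p = 0.0789), where 38.3% of 1802 introns of all genes did.

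The levels of most of these transcripts fell. Of the 8 genes, 7 had a lower TPM after pladienolide B and none a higher one, against 45.4% lower and 6.48% higher of all genes (51.9% in total). Their median log2 change was -1.04, where the median of all genes was -0.42. The part of each change below that is shared with genes in general was not tested. Plec had 97.9 and 79.0 TPM with DMSO and 25.9 and 24.0 TPM with pladienolide B (log2 change -1.82 ± 0.30 SE, adjusted p = 1.99e-04). Ank2 had 1.79 and 1.61 TPM with DMSO and 0.349 and 0.347 TPM with pladienolide B (log2 change -2.00 ± 0.49 SE, adjusted p = 0.00393), and Ank3 had 5.80 and 5.29 TPM with DMSO and 1.99 and 1.86 TPM with pladienolide B (log2 change -1.48 ± 0.13 SE, adjusted p = 6.07e-07). These 3 fell most, and in each the groups did not overlap. Sptan1 had 93.7 and 90.7 TPM with DMSO and 47.5 and 42.5 TPM with pladienolide B (log2 change -1.04 ± 0.20 SE, adjusted p = 5.86e-04), and Macf1 had 18.6 and 18.3 TPM with DMSO and 8.95 and 8.80 TPM with pladienolide B (log2 change -1.05 ± 0.16 SE, adjusted p = 9.00e-05). Dst had 7.59 and 6.93 TPM with DMSO and 4.65 and 4.73 TPM with pladienolide B, and Sptbn1 60.4 and 59.0 TPM with DMSO and 39.3 and 36.5 TPM with pladienolide B. Their changes were the smallest of the 7 that passed (log2 change -0.62 ± 0.15 SE, adjusted p = 0.00362 for Dst, log2 change -0.65 ± 0.23 SE, adjusted p = 0.0302 for Sptbn1), and Sptbn1 did not pass when any 1 of the 4 fibroblast libraries was left out (adjusted p 0.0731 to 0.126). Ank1, with 0.885 and 0.726 TPM with DMSO and 0.617 and 0.519 TPM with pladienolide B, did not pass (log2 change -0.44 ± 0.52 SE, adjusted p = 0.609).

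**Figure D5:**
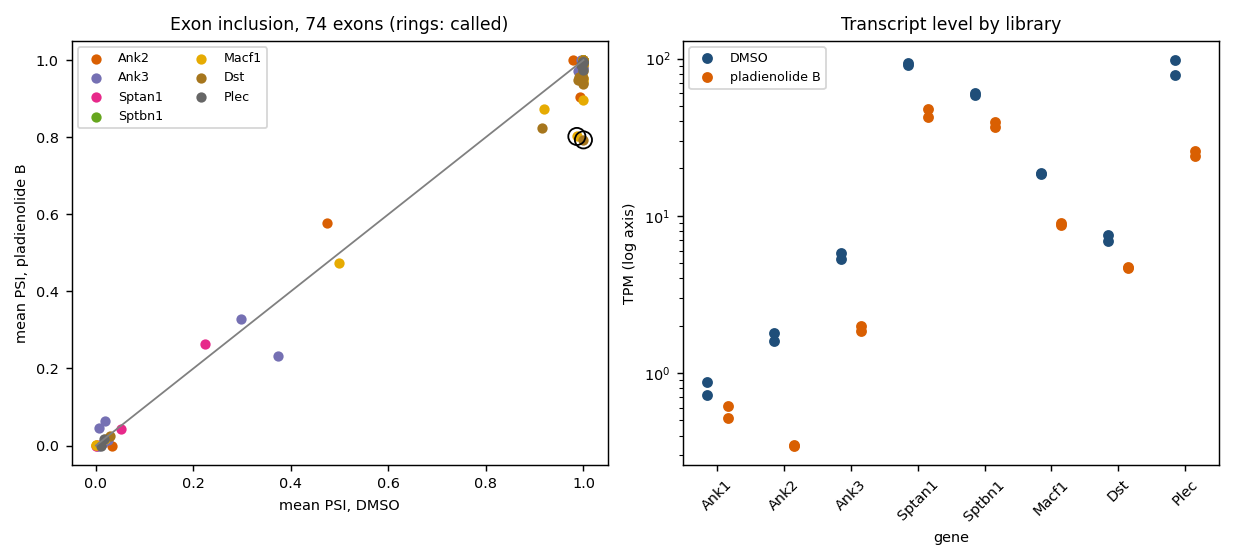
Mean PSI of the 74 exons with DMSO and with pladienolide B, coloured by gene with rings on the exons that differed and a line of equal PSI, and TPM (log axis) of the 8 genes in each of the 4 fibroblast libraries. The Macf1 9-bp and Dst 85-bp exons lie more than 0.1 below the line, and the treated points lie under the control points in every gene, though Ank1 did not pass the test.

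Among the partner lists none had a member that rose, where 45.4% of all genes fell and 6.48% rose. Of 8 measured proteins of the membrane skeleton, 6 fell (75.0%, median log2 change -1.13), for example the actin-capping Tmod3 with 147 and 149 TPM before and 67.6 and 63.3 TPM after treatment. Of 15 plakin partners 6 fell (median -0.36), among them the microtubule end proteins Clasp1, with 40.6 and 37.7 TPM with DMSO and 4.52 and 4.72 TPM with pladienolide B, and Clasp2, while the intermediate filament gene Vim had 4397 and 4424 TPM against 4721 and 4663 TPM. Of 18 ankyrin partners 3 fell (16.7%). Of 3 other plakins 2 fell, and of the 5 other spectrin genes, which fibroblasts hardly express, none passed by limma.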

How the data were processed

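RNA-seq libraries of F1 hybrids were analysed, 2 in each of 9 groups. The authors aligned stranded reads with HISAT2 2.0.1 to C57BL/6J (mm10) and variant-substituted SPRET/EiJ genomes, assigned each read to the genome with fewer mismatches, and counted junctions with rMATS. The deposited junction counts are other values, lists with the replicates of a group in order and not normalised. The order was taken as replicate number, since log2 ratios of the positions followed those of the TPM replicates over genes (r from 0.715 to 0.977). The deposited TPM were made by the authors from featureCounts. Effective lengths are a deposited score. The authors' inclusion levels, 36 columns of per-sample values, and their columns of p-values, FDR and inclusion differences were not used.

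PSI was recomputed from counts and lengths with at least 20 reads per library, and per allele and library for allelic comparisons. There the allelic PSI had to lie within 0.1 of the PSI of all reads. The paper's further condition on the FDR of that comparison was not applied. A quasi-binomial logistic model was fitted to all autosomal skipped exon events with enough reads. Its dispersions were moderated by squeezeVar of limma 3.58.1 toward a depth trend and floored at 1. The p-values of its F test were adjusted by Benjamini and Hochberg over the events tested, while counts are over exons. TPM were tested with limma on log2(TPM + 0.1) for genes with a mean of at least 1 in a group, all 9 groups in one fit. The models were tested on simulated data. Named exons were, per gene, up to 4 with the largest switch score of at least 0.2, all exons with an allelic difference, and up to 10 under pladienolide B. Alternatives were 10 or 50 reads, 1 prior for all depths, no filter of allelic against total PSI, a replicate block, a pseudocount of 1, no filter on TPM, and leaving out each library. Both alleles of a library are paired by origin (r of their replicate differences -0.00357 to 0.552), and the block with the library changed no call. Outside ESC, of 25 pairs of a maternally expressed imprinted gene and a group 24 had over 50% of reads on C57BL/6J, all but Grb10 in cortex, and of 27 paternal ones 0. In ESC 0 of 4 maternal and 4 of 6 paternal genes did, so the order of alleles was not checked there. The members and lists were chosen with earlier results of these data known. Sequences are not printed here. Python 3.11.15 and R 4.3.3 were used.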

Additional observations from a re-analysis of the deposited data

Results flagged for a closer look

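For 3 exons the allelic difference in PSI itself differed between tissues, by an allele by tissue term of the quasi-binomial model, an alternative chosen after seeing the data and run on exons that already had an allelic difference in some tissue, so that these tests are not independent of that choice. Of 69 tests of an exon in a pair of tissues 7 passed. For the 92-bp exon of Ank2 the C57BL/6J minus SPRET/EiJ difference was -0.134 in cortex and 0.0525 in heart, -0.187 apart (adjusted p = 8.16e-04), and 0.223 in lung, -0.357 apart from cortex (adjusted p = 1.49e-04). For the 111-bp exon of Dst the difference in spleen, 0.294, exceeded those of cortex and heart, which were -0.323 and -0.308 apart from it (adjusted p = 1.88e-04 and 0.0104). For the 15-bp microexon of Sptan1 the difference in cortex, -0.00538, was -0.306 apart from heart, -0.334 from lung and -0.188 from spleen (adjusted p = 0.00238, 4.48e-05 and 3.81e-04).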

How the results depend on the processing

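The 34 tissue-dependent exons numbered 33 to 36 with 1 library left out and 34 with the replicate block. The 7 exons with an allelic difference and the 2 in fibroblasts both became 0 by limma on the logit of PSI, which called 25 exons over tissues. For the alleles, leaving out 1 library left only the size of a difference to compare. Without cortex replicate 2 the 12-bp and 160-bp exons of Macf1 fell below 0.1. Of the called differences of single exons and tissues, 8 to 10 still reached 0.1 with 1 library left out (10 in all). In fibroblasts 1 to 2 did (2 in all). Under pladienolide B 2 to 3 exons passed (2 in all), and 6 of 8 genes by TPM (7 in all, Sptbn1 being lost). The replicate block, with the library as block for the alleles, gave 7 and 2 exons again and changed no other call, and the organs share 2 animals, but their replicate numbers were not taken as pairs, since no source ties a number to an animal and replicate differences correlated with r from -0.102 to 0.0622 in PSI over pairs of groups and from 0.0315 to 0.165 in log2 TPM over pairs of organs. Named exons that no longer passed were the 125-bp exon of Ank1 and the 12-bp exon of Ank3 at 50 reads, and the 12-bp and 63-bp exons of Ank3, the 60-bp exon of Sptan1 and the 18-bp exon of Dst by limma on the logit of PSI. Without both ESC libraries, an alternative chosen after seeing the data like limma on the logit, 34 of 68 exons differed, 33 of them also with ESC. edgeR was not run, because the junction counts are stored as lists. The first form of the block fit gave no calls, and the limit that excludes fitted values near 0 or 1 was set after that was seen. In liver 17 exons had enough reads, although its libraries had the most junction reads of the tissues, and the TPM of all 8 genes was lowest there.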
